A study of Arabidopsis thaliana with 6 samples.

Results

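GILT (AT4G12960) is the Arabidopsis thaliana gene named after the gamma-interferon-responsive lysosomal thiol reductase. It was followed here in mature pollen of wild type and of 2 insertion lines. It was found as the 1 probe set annotated to that symbol among 22746 probe sets that are not array controls, of which 13513 had 1 listed gene. GILT was chosen by its signal in the 3 groups of these same arrays, so its levels, ranks and differences are given as a description and were not tested.

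The series, titled for transcription factors of the gametophyte, measured total RNA on 6 Affymetrix ATH1 arrays, 2 per group. The groups were wild-type Col-0 (WT), the SAIL_1168_C11 line (TF1) and the SALK_018864 line (TF2), both in the Col-0 background, with no further treatment or allele given. All plants grew on compost at 21 °C and 75% humidity. The labels do not say whether the paired arrays came from separate plants or collections, so p-values reflect the scatter among these arrays alone, and that scatter may be technical. From general knowledge and not from the labels, SALK_018864 carries an insertion in the bZIP factor gene BZIP34, and which gene is hit in TF1 was not stated. The BZIP34 probe set read 35.5 and 55.7 in WT, 27.7 and 59.8 in TF1, and 128 and 123.1 in TF2, but the position of its probes with respect to that insertion is unknown, so this checks no label.

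In mammals GILT is an enzyme of lysosomes, the acidic digestive compartments of the cell. There it reduces the disulfide bonds of proteins taken up for degradation and so opens them to proteases. Plants carry a small family of related genes, and the lytic vacuole is the plant compartment that corresponds to the lysosome. Thioredoxins, glutaredoxins and protein disulfide isomerases carry out dithiol exchange elsewhere in the cell, and vacuolar processing enzymes and cathepsin B-like proteases cleave proteins in the vacuole.

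GILT signal, in units of array intensity, was 1293 and 1257 in WT, 2383 and 3057 in TF1 and 35.6 and 13.4 in TF2. Every TF1 array lay above both WT arrays, every TF2 array lay below them, and no groups overlapped. The mean signal was 1275 ± 25.3 (SD, n = 2) in WT, 2720 ± 476.6 (SD, n = 2) in TF1 and 24.5 ± 15.7 (SD, n = 2) in TF2. The TF1 mean was 2.13 times that of WT, and single TF1 arrays stood 1.84 to 2.43 times above single WT arrays. In TF2 the mean was 1.92% of that in WT, a 52.0-fold lower signal, with 35.3 to 96.6 for single pairs of arrays. Between the lines the fold was 111, with 66.9 to 228 for single pairs. Both folds are ratios of deposited signals, and since the TF2 signal was not shown to lie above background, they do not measure the fold of the transcript.

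On the scale used for all differences below, log2 of the signal plus a pseudocount of 10.3, the 25th percentile of all values, GILT differed by 1.08 between TF1 and WT, by −5.28 between TF2 and WT and by −6.36 between TF2 and TF1. This scale understates the change of dim genes, and the TF2 level is close to the pseudocount. After quantile normalization the difference between TF1 and WT was 0.54, with the same direction. The replicate arrays of GILT differed by 0.04 log2 units in WT, 0.36 in TF1 and 0.95 in TF2, against medians of 0.26, 0.37 and 0.38 over the 11373 probe sets kept for testing (those with a mean log2 value at or above the median). The gap of GILT in TF2 was wider than for most kept probe sets, 20.3% of which had a wider one.

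By rank, GILT was among the brighter transcripts of WT and TF1 pollen. It stood at place 572 and 554 of 22746 on the WT arrays and at place 468 and 383 on the TF1 arrays, 29.3 to 34.0 times and 70.9 to 82.3 times the array median. In TF2 it was at place 11367 and 15818. There the signal on replicate 1, 35.6, equalled the array median of 35.6, and replicate 2 lay at 0.359 times its median. The deposited table carries no present or absent calls, so whether any GILT transcript was detected in TF2 cannot be stated.

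**Figure D1:**
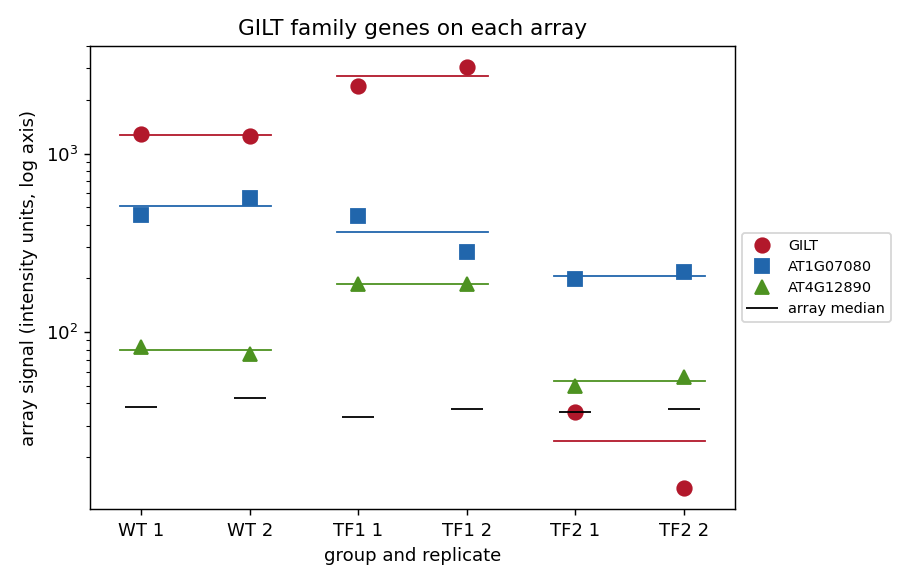
Array signal (log axis) of GILT and of the other 2 GILT family genes with a probe set on each of the 6 arrays; coloured lines are group means of 2 arrays and black dashes array medians. GILT is at 1257 or more on the WT and TF1 arrays and at 35.6 and 13.4 on the TF2 arrays.

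Compared with other transcripts, GILT had the lowest TF2 minus TF1 difference of the 11373 kept probe sets. Among those with 1 gene the next lowest were AT1G56100 (−4.66) and AT4G15750 (−4.55), both of the pectin methylesterase inhibitor superfamily, and AT3G19690 (−4.31), of the CAP superfamily of secreted proteins. For TF2 minus WT 7 kept probe sets lay below GILT, and for TF1 minus WT 528 lay above it. The next cut-offs were signals of GILT itself, so GILT met them by construction. They were its lower signals in TF1 (2383) and WT (1257) and its higher signal in TF2 (35.6). Of 444 probe sets at or above 2383 on both TF1 arrays, GILT was the 1 that lay at or below 35.6 on both TF2 arrays. Of 543 at or above 1257 on both WT arrays, 3 did so: GILT, the plastid ribosomal protein gene rps19 and a probe set with no listed gene. Groups that did not overlap in the order TF1, WT, TF2 from high to low were found for 1.42% of kept probe sets, and in the opposite order for 1.59%.

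**Figure D2:**
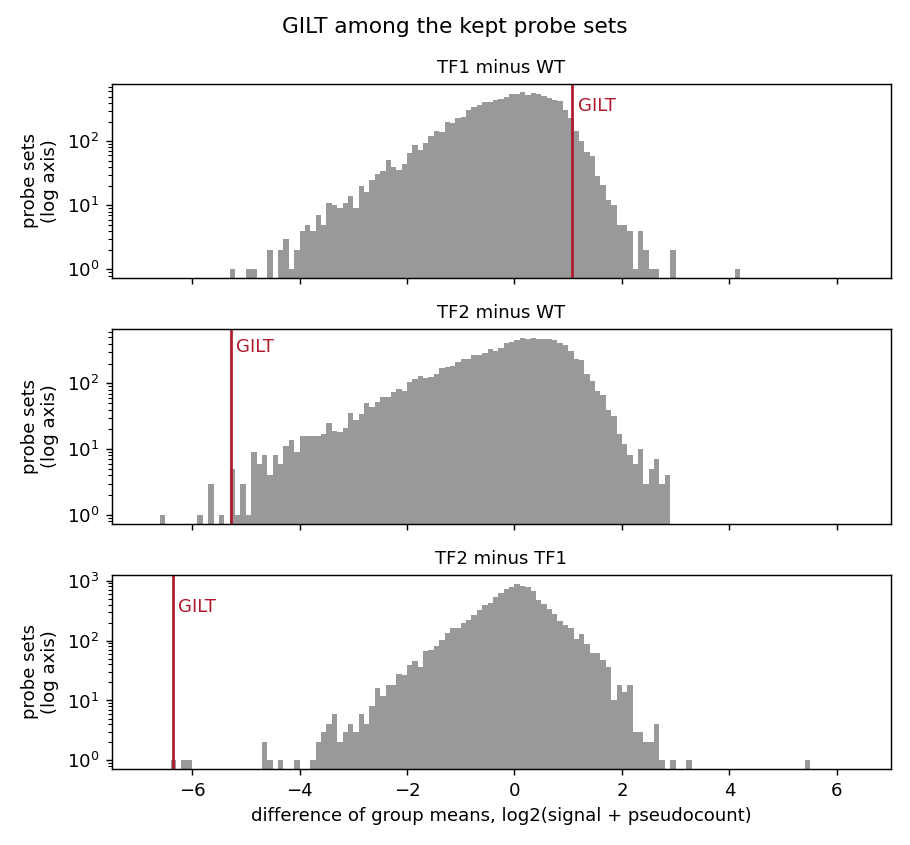
Histograms of the difference of group means on the log2(signal + pseudocount) scale for 11373 kept probe sets (counts on a log axis), with GILT as a red line. GILT lies at 1.08 for TF1 minus WT, −5.28 for TF2 minus WT and −6.36 for TF2 minus TF1, the lowest value of that last panel.

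The GILT family as listed here has 5 other genes: AT4G12870, AT4G12890 and AT4G12900, which lie 9, 7 and 6 coding genes from GILT on chromosome 4 in the RefSeq gene order (assembly TAIR10.1), AT1G07080 on chromosome 1, and OSH1 on chromosome 5. AT1G07080 and AT4G12890 have a probe set with 1 gene, and both were kept. The remaining 3 are not analysed here. Whether the GILT probe set also binds transcripts of its relatives was not tested, since probe sequences were not used here.

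AT4G12890 read 83.2 and 75.8 in WT, 186 and 187 in TF1, and 50.2 and 55.9 in TF2. These values run in the same order as those of GILT, with no overlap between groups, at lower signal. AT4G12890 was higher in TF1 than in WT by 1.13 (SE 0.32, adjusted p = 0.0236 by limma) and lower in TF2 than in TF1 (−1.64, SE 0.32, adjusted p = 0.0113 by limma). Against WT its TF2 difference of −0.50 did not pass the threshold (adjusted p = 0.268 by limma). The TF1 call was lost without the intensity trend and without any 1 of the WT or TF1 arrays (adjusted p up to 0.149), and the call between the lines without TF1 replicate 1 or 2 (up to 0.0912).

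AT1G07080 read 452 and 564 in WT, 447 and 280.4 in TF1, and 197.7 and 217 in TF2. Both TF2 arrays lay below all others, and the TF1 arrays lay below both WT arrays. AT1G07080 fell in TF2 against WT (−1.24, SE 0.23, adjusted p = 0.00119 by limma), a call held in all 14 alternatives run. Its differences between TF1 and WT (−0.50, adjusted p = 0.154 by limma) and between the lines (−0.75, adjusted p = 0.0945 by limma) did not pass the threshold.

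Of the genes beside GILT on chromosome 4, the nearest 3 on each side with a probe set of their own were followed. AT4G12980, 2 genes away on one side, read 80.8 and 102 in WT, 132 and 134 in TF1, and 20.1 and 21.1 in TF2. Again TF1 was highest and TF2 lowest without overlap. AT4G12980 fell in TF2 against WT (−1.71, SE 0.40, adjusted p = 0.00569 by limma) and against TF1 (−2.21, SE 0.40, adjusted p = 0.00686 by limma), while TF1 minus WT, at 0.50, did not pass (adjusted p = 0.432 by limma). The first of these calls was lost without WT replicate 2 (adjusted p = 0.0797) and the second without TF1 replicate 1 or 2 (up to 0.0719). Between GILT and AT4G12980 lies STOMAGEN, which encodes a secreted peptide that promotes stomata and was too dim to be kept, at 39.0 and 30.2 in WT, 21.3 and 5.31 in TF1, and 46.8 and 54.9 in TF2.

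Values of the remaining neighbours overlapped between groups or ran in another order than those of GILT. AT4G12930, 3 genes away, was higher in both lines, by 1.12 in TF1 (SE 0.33, adjusted p = 0.0282 by limma) and 1.44 in TF2 (SE 0.33, adjusted p = 0.00505 by limma); the TF1 call was lost in 5 of 14 alternatives. scpl20, for a serine carboxypeptidase-like protein, rose in TF1 by 1.26 (SE 0.36, adjusted p = 0.0244 by limma, lost in 4 of 14 alternatives) and had a TF2 minus WT difference of 0.00. AT4G12990 did not pass the threshold in any comparison by limma, and UND, an aspartic protease gene of the tapetum, was too dim to be kept.

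**Figure D3:**
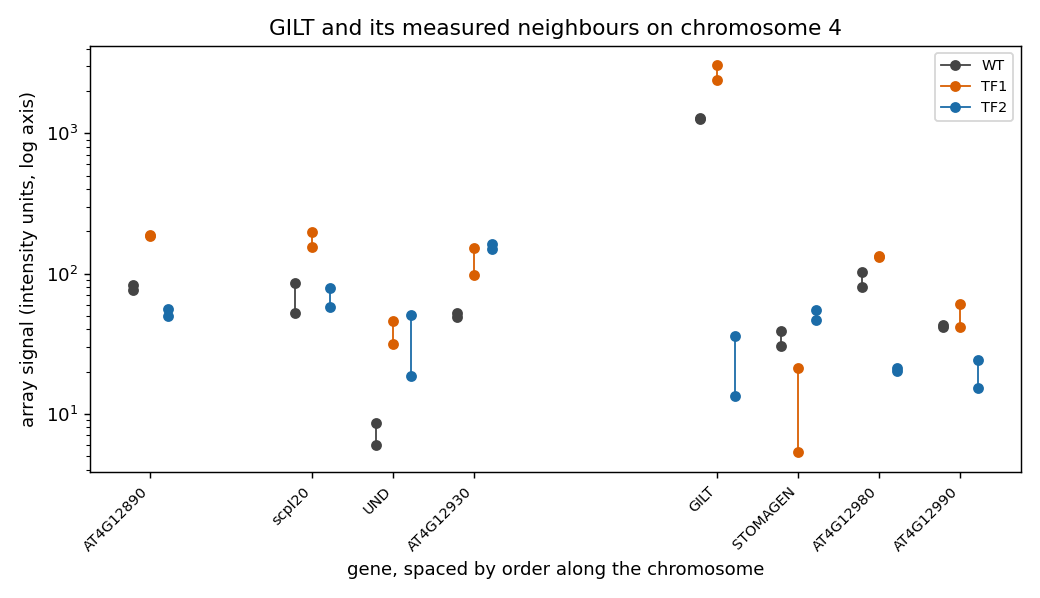
Array signal (log axis) of GILT, of the nearest 3 genes on each side with a probe set and of AT4G12890, spaced by gene order along chromosome 4; each point is an array and a line joins the 2 arrays of a group. AT4G12890, GILT and AT4G12980 have TF1 highest and TF2 lowest.

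The genes most like GILT were ranked by the root mean square distance of their log2 values over the 6 arrays, each centred on its WT mean, among 6233 kept genes. They are a description, since they were picked for this pattern. Distances ran from 0.99 to 1.52 log2 units for the nearest 10, against a median of 3.24. Even the nearest gene thus stood 0.99 log2 units from GILT as a root mean square, with unequal gaps on single arrays. In all of these 10 both TF2 arrays lay below both WT arrays, by −2.84 to −4.40 on this scale, beside −5.28 for GILT. The pseudocount limits the fall of genes that are dim in WT. On deposited signals AT1G29670 and AT5G38180 were 54.1-fold and 52.3-fold lower in TF2 than in WT, beside 52.0-fold for GILT. The rest of the 10 fell by smaller folds. In TF1 the 10 genes divided: 4 of 10 had both arrays above WT, as GILT has, and 5 of 10 had both below. The share of all kept genes whose arrays separate in this way from WT is not given here, so these counts have no background.

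The nearest, AT3G19690 of the CAP superfamily, read 200.6 and 198 in WT, 277 and 277 in TF1, and 2.18 and 6.45 in TF2. AT1G69840, a gene of the band 7 family of membrane proteins, read 679 and 697 in WT, 817 and 846 in TF1, and 69.0 and 43.5 in TF2. Both thus share the order of GILT, with a smaller difference between TF1 and WT than that of GILT (0.46 and 0.27). Both pectin methylesterase inhibitor genes had a larger difference between TF1 and WT than GILT (1.52 and 1.71). AT1G56100 read 158 and 166 in WT, 402 and 581 in TF1, and 15.7 and 4.35 in TF2. AT4G15750 read 442 and 424 in WT, 1458 and 1430 in TF1, and 77.6 and 33.3 in TF2.

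Among the other 6 of the nearest 10 the TF1 minus WT differences ran from −1.18 to 0.28. These genes were AT5G38160, AT5G38170 and AT5G38180, adjacent in locus number and all of the lipid transfer protein superfamily, so that their probe sets may share signal, AT5G48570, a co-chaperone gene of the FK506-binding family, the heat shock gene Hsp70-2, and AT1G29670, a GDSL lipase gene. With a pseudocount of 1, 7 of the nearest 10 stayed among them. By Pearson correlation over the same 6 arrays 3 of 10 did, and 51 of 6233 genes had r above 0.95.

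**Figure D4:**
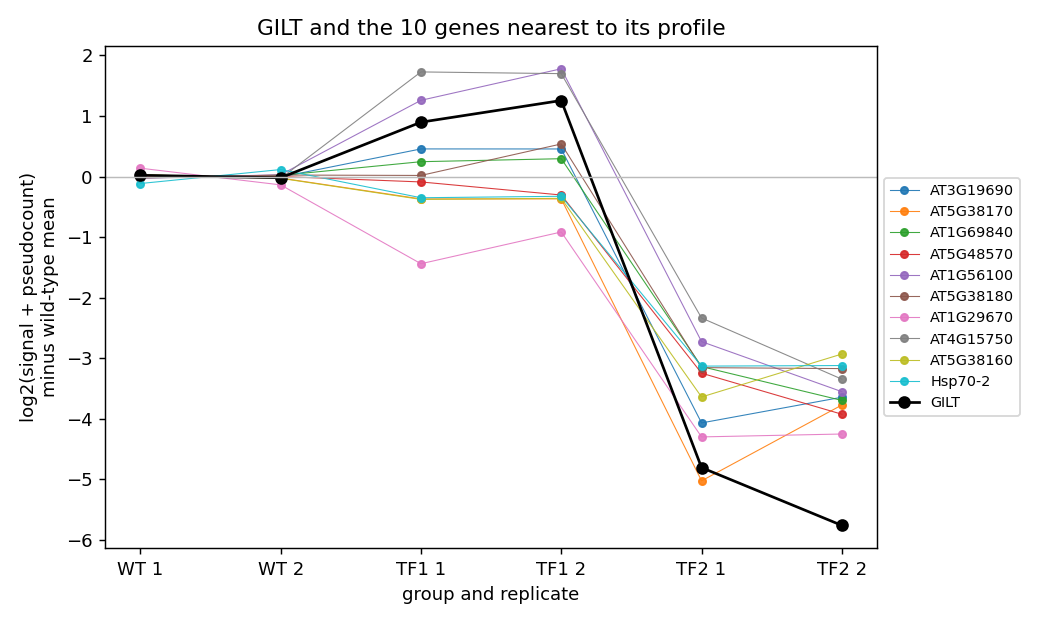
Log2(signal + pseudocount) minus the WT mean on each of the 6 arrays for GILT (black) and the 10 genes with the smallest distance to it; lines join arrays only to guide the eye. GILT ends lowest on the second TF2 array, and the 10 genes lie on both sides of 0 in TF1.

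Genes for dithiol exchange, glutathione, peroxide removal and vacuolar proteolysis were followed as lists, to see how other genes of these functions stood on the same arrays. The 8 lists, with GILT itself left out, held 216 genes, of which 57 had a probe set with 1 gene and 37 were kept. In TF1 against WT 8 of 37 passed the threshold, 21.6% of them, and 21.6% of all kept probe sets did. Of these list genes 3 were higher and 5 lower, beside 11.9% and 9.64% of all kept probe sets. In TF2 against WT 11 of 37 passed, 29.7%, beside 30.8% of all, with 1 higher and 10 lower, beside 14.8% and 16% of all. Both total shares are near the background, so neither is a result about these genes as a group. Between the lines 4 of 37 differed, 10.8%, beside 4.65% of all (0.853% higher and 3.8% lower in TF2). All 4 were lower in TF2: AT4G12890, AT1G02305, GRXC2 and DELTA-VPE. A direction within these lists that matched GILT, TF1 above WT above TF2 without overlap, was seen for 3 of 37 (8.11%, beside 1.42% of all kept probe sets): AT4G12890, AT1G02305 and DELTA-VPE. The shares of 10.8% and 8.11% rest on few genes, from lists chosen with earlier results of these data known. Neither share was tested against that of all kept probe sets.

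Among 8 kept vacuolar and papain-like proteases, 1 rose and 2 fell in TF1 and 0 rose and 4 fell in TF2 (median 0.10 and −0.66, beside −0.02 and 0.05 over all kept probe sets). Of all kept probe sets 11.9% rose and 9.64% fell in TF1, and 14.8% rose and 16% fell in TF2. The protease counts rest on 8 genes and were not tested against these shares. DELTA-VPE, a vacuolar processing enzyme known from the inner layers of the developing seed coat, read 116 and 93.0 in WT, 254 and 284 in TF1, and 24.9 and 6.20 in TF2. Its groups were ordered as those of GILT. DELTA-VPE fell in TF2 against WT (−2.24, SE 0.42, adjusted p = 0.00131 by limma) and against TF1 (−3.53, SE 0.42, adjusted p = 0.000446 by limma), both in all 14 alternatives. Its rise in TF1 (1.29, SE 0.42, adjusted p = 0.0451 by limma) was lost in 7 of 14, among them each of the 4 that left out a WT or TF1 array (up to 0.261).

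AT1G02305, a cathepsin B-like protease gene, read 317 and 286 in WT, 331 and 354 in TF1, and 102 and 113 in TF2. TF1 lay just above WT (0.18, adjusted p = 0.614 by limma), and TF2 was lower than WT (−1.41, SE 0.21, adjusted p = 0.000233 by limma) and than TF1 (−1.58, SE 0.21, adjusted p = 0.000882 by limma). Another cathepsin B-like gene, AT4G01610, was lower in both lines, by −1.98 in TF1 (adjusted p = 0.00106 by limma, lost without the intensity trend at 0.0605) and −1.13 in TF2 (adjusted p = 0.0220 by limma, lost in 5 of 14 alternatives). The aspartic protease gene AT4G04460 was lower by −1.85 in TF1 (adjusted p = 0.00677 by limma, lost in 4 of 14 alternatives, up to 0.103) and −1.94 in TF2 (adjusted p = 0.00341 by limma, lost without WT replicate 2 at 0.0593). The main vegetative vacuolar processing enzyme gene, GAMMA-VPE, read 742 and 725 in WT, 721 and 658 in TF1, and 597 and 685 in TF2. It did not pass the threshold in any comparison by limma, nor did BETA-VPE, ALPHA-VPE or the aspartic proteinase gene APA1, whose TF1 minus WT difference of 0.03 became −0.45 after quantile normalization and passed there (adjusted p = 0.0279).

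Of 7 kept thioredoxin and reductase genes 1 changed: ATHM2, a plastid thioredoxin, fell from 272 ± 4.58 to 92.1 ± 2.23 in TF1 (−1.47, SE 0.29, adjusted p = 0.00285 by limma, lost without WT replicate 1) and to 55.9 ± 6.80 in TF2 (−2.10, SE 0.29, adjusted p = 0.000139 by limma). Of 4 kept glutaredoxins 1 changed: GRXC2 read 1229 ± 55.9 in WT, 1163 ± 18.3 in TF1 and 762 ± 87.2 in TF2. It fell in TF2 against WT (−0.69, SE 0.14, adjusted p = 0.00205 by limma, lost without the intensity trend) and against TF1 (−0.61, SE 0.14, adjusted p = 0.0245 by limma, lost in 8 of 14 alternatives). The 1 kept protein disulfide isomerase gene, PDIL5-1, did not pass the threshold in any comparison by limma (lowest adjusted p = 0.152, for TF2 against WT). Beside these counts, 21.6% of all kept probe sets passed in TF1 against WT, 30.8% in TF2 against WT and 4.65% between the lines. With so few genes per list, the counts are no result about these families and were not tested against those shares.

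Of 9 kept glutathione enzymes 1 rose and 2 fell in TF1 (median −0.87), and 1 rose and 2 fell in TF2 (median −0.08). Over all kept probe sets 21.6% passed in TF1 (median −0.02) and 30.8% in TF2 (median 0.05). The counts in this paragraph rest on few genes and were not tested against these shares. GLX2-5, a glyoxalase II that uses glutathione, rose in TF1 (0.77, adjusted p = 0.000845 by limma) and TF2 (0.61, adjusted p = 0.00248 by limma); both calls were lost without the intensity trend and after quantile normalization, where the TF2 difference was −0.068. GR1, the cytosolic glutathione reductase, read 317 and 287 in WT, 10.5 and 78.0 in TF1, and 91.9 and 20.4 in TF2, and was lower in both lines (−2.86 and −2.48, adjusted p = 0.00762 and 0.0125 by limma). The plastid and mitochondrial reductase gene GR was lower in TF2 (−1.85, adjusted p = 0.0164 by limma), and GSTL3 was lower in TF1 (−1.03, adjusted p = 0.0422 by limma). The calls of GR1 and GR were each lost in 4 of 14 alternatives, and that of GSTL3 in 8. Of 3 kept scavengers SAPX, an ascorbate peroxidase of the plastid stroma, was lower in TF2 (−2.14, adjusted p = 0.0434 by limma, lost in 8 of 12 alternatives). Of 3 kept genes for ascorbate and cysteine synthesis 0 passed in limma.

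**Figure D5:**
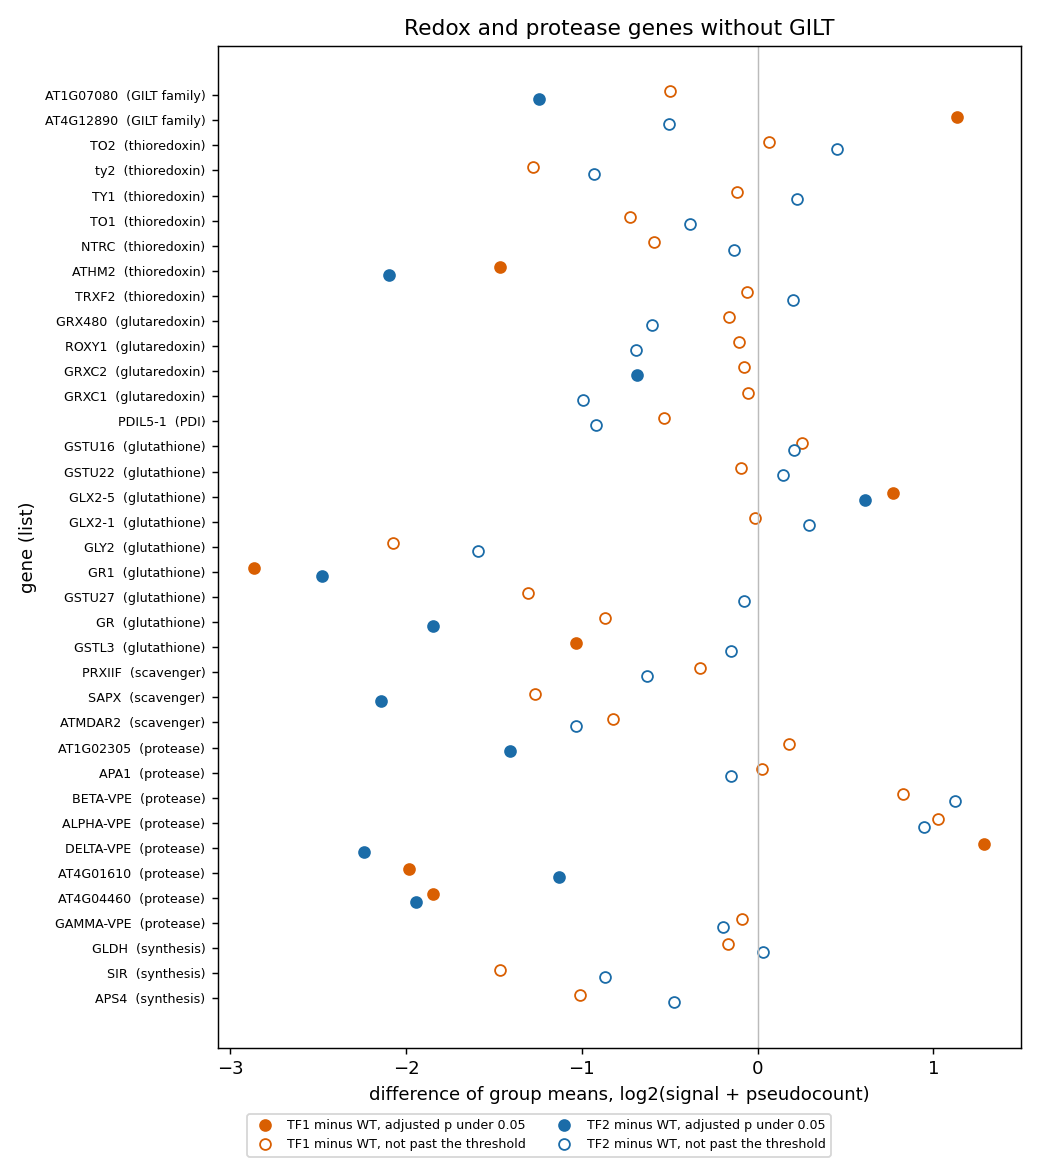
Difference from WT on the log2(signal + pseudocount) scale for the 37 kept genes of the redox and protease lists, in TF1 (orange) and TF2 (blue); filled points passed an adjusted p of 0.05 in limma. DELTA-VPE and AT4G12890 lie above 0 in TF1 and below 0 in TF2, and most genes have open points.

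Markers of leaf, seed coat, tapetum and pollen cells were read on the same arrays. In these bulk samples fewer cells of a type and less RNA per cell cannot be told apart. Leaf markers, of which 7 of 22 had a probe set, summed to 4912 and 4626 in WT, 326 and 367 in TF1, and 379 and 410 in TF2. Their sums were thus lower in both lines than in WT. What part leaf RNA has in the GILT values was not tested. Pollen vegetative cell markers (6 of 8 with a probe set) summed to 9861 and 9556 in WT, 17957 and 17376 in TF1, and 22702 and 19596 in TF2, and sperm cell markers (3 of 10) to 647 and 773, 1426 and 1391, and 1469 and 1281. On the deposited scaling 6 of 6 vegetative cell markers passed the threshold as higher in each line by limma. Of the 3 sperm cell markers 1 did, MGH3, which makes up most of their sum, while TET11 and TET12 did not pass in either line. Beside these counts, 11.9% of all kept probe sets passed as higher in TF1 and 14.8% in TF2.

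Of 11 seed coat markers 2 had a probe set, BAN and DFR, and 1 of them, BAN, ran in the order of GILT. That order without overlap was seen for 1.42% of all kept probe sets, and 1 gene is no result about the list. BAN and DFR summed to 157 and 162 in WT, 392 and 350.5 in TF1, and 90.2 and 144 in TF2. BAN, the anthocyanidin reductase of the seed coat endothelium, read 41.5 and 70.0 in WT, 203 and 176 in TF1, and 15.4 and 4.77 in TF2. Its groups did not overlap and ran in the order of those of GILT. BAN was higher in TF1 than in WT (1.63, SE 0.49, adjusted p = 0.0344 by limma) and lower in TF2 than in WT (−1.71, SE 0.49, adjusted p = 0.0201 by limma) and than in TF1 (−3.33, SE 0.49, adjusted p = 0.00208 by limma). The BAN call in TF1 was lost in 7 of 14 alternatives (up to 0.254), that of TF2 against WT without WT replicate 2 (0.193), and that between the lines without TF1 replicate 1 (0.0584). DFR, a flavonoid gene whose TF2 arrays lay on either side of WT, did not pass the threshold in any comparison by limma, at 116 and 91.8 in WT, 190 and 175 in TF1, and 74.7 and 139 in TF2. What part seed coat RNA has in the GILT values was not tested. Tapetum markers (2 of 14 with a probe set) summed to at most 124 on any array, with TF2 at 124 and 59.1.

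Of the control probe sets of the array, only those at the 3′ and 5′ ends of actin and GAPDH were read here. For actin the 3′ probe set read 624 and 636 in WT, 157 and 190 in TF1, and 93.9 and 84.6 in TF2, and the 5′ probe set 104 and 84.8, 102 and 172, and 229 and 349. The 3′ signal of actin was thus the higher one in WT and the lower one in TF2, where GILT was lowest. For GAPDH the 3′ probe set read 794 and 719 in WT, 230 and 225 in TF1, and 92.6 and 139 in TF2, and the 5′ probe set 158 and 137, 71.5 and 132, and 49.2 and 31.2, so that its 3′ signal was the higher one on all 6 arrays. The part of these differences in the GILT values was not tested. Log2 signals of replicate arrays had Pearson correlations over the kept probe sets (genes, not replicates) of 0.948 in WT, 0.917 in TF1 and 0.908 in TF2.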

How the data were processed

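The authors deposited linear signal intensity for every probe set. The tools in the submitters' processing notes are MAS5 and GCOS, without versions. Each array had a mean of 100.0 once 2% of values were trimmed from either end, and this scaling was kept. The number of arrays, 2 per group, limits the precision.

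The probe annotation gave 13513 probe sets 1 gene, 503 several and 8730 none listed, and 64 control probe sets stayed out of the tests. Of the probe sets with 1 gene, 13436 matched a RefSeq gene table (assembly TAIR10.1), used for names and gene order. Log2(signal + pseudocount) values were fitted for all 11373 kept probe sets in limma 3.58.1 (R 4.3.3), with an intensity trend and the 3 groups together. P-values were adjusted by Benjamini-Hochberg over all kept probe sets, with 0.05 as the threshold, and tests were two-sided. The brightest probe set stood for a gene with several. Exact permutation of 2 arrays against 2 cannot reach that threshold, so none was run.

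GILT and the gene lists were chosen with earlier results of these data known. Named were GILT, its family, the nearest 10 genes by distance, the nearest 3 measured genes on each side, and up to 4 called members of each list. Lists were matched by symbol, synonym or locus, and genes that share a name by chance were removed by name. The alternatives were pseudocounts of 1 and 37.5 (the median), median centring, quantile normalization, no filter, no trend, a replicate block, only the groups compared, and each array left out in turn.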

Additional observations from a re-analysis of the deposited data

Results flagged for a closer look

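The genes below stood on opposite sides of wild type in TF1 and TF2, with all 4 arrays of the lines outside the range of WT. GILT had a TF2 minus TF1 difference of −6.36 log2 units, which was not tested. The other differences were −1.64 for AT4G12890 (adjusted p = 0.0113 by limma), −2.21 for AT4G12980 (adjusted p = 0.00686 by limma), −1.58 for AT1G02305 (adjusted p = 0.000882 by limma), −3.53 for DELTA-VPE (adjusted p = 0.000446 by limma) and −3.33 for BAN (adjusted p = 0.00208 by limma). STOMAGEN had the opposite order, with a difference of 1.46 that was not tested, since it was too dim to be kept.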

How the results depend on the processing

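GILT lay above WT in TF1 and below it in TF2 under every alternative run. With a pseudocount of 1 its differences were −5.80 (TF2 minus WT) and −6.88 (TF2 minus TF1), and with the median as pseudocount −4.43 and −5.49. Quantile normalization gave 0.54 for TF1 minus WT. With 1 array left out at a time the ranges were 0.90 to 1.26, −5.76 to −4.81 and −6.84 to −5.88. For TF1 against WT, TF2 against WT and TF2 against TF1 in that order, limma called 2453, 3506 and 529 probe sets. Without the intensity trend it called 456, 2185 and 175, with 1 and 6 list genes against WT in TF1 and TF2. With only the groups compared, 274 differed between the lines. Leaving out 1 array gave 1266 to 2817, 2113 to 3543 and 217 to 589 probe sets, and 2 to 11, 6 to 12 and 2 to 4 list genes. The low ends came without a WT array (1374 and 1266 for TF1, 2180 and 2113 for TF2, 285 and 291 between the lines) or a TF1 array (222 and 217 between the lines). Median centring gave 1551 higher and 837 lower probe sets in TF1 against WT, beside 1357 and 1096 on the deposited scaling. Quantile normalization turned the sign of APA1 in TF1 (−0.45) and of GLX2-5 in TF2 (−0.068). The cause of these changes was not tested, and some of these fits held fewer arrays or groups. A replicate block gave 2521, 3558 and 593 probe sets and 9, 11 and 4 list genes. Deviations of same-numbered arrays correlated at 0.00794, 0.0216 and 0.00204, so no shared deviation was seen. These values cannot show whether same-numbered arrays were collected or processed together. Signals near the TF2 level of GILT lie at or below the array median, which limits the precision of its fold.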
